A study of Mus musculus with 8 samples.

Results

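The transcripts described here are those of 8 mouse genes of the red cell, found by symbol among the 54838 genes of a count table of leukaemic cells. They are the adult beta globins Hbb-bs and Hbb-bt, the adult alpha globins Hba-a1 and Hba-a2, the carbonic anhydrases Car1 and Car2, and the red cell membrane genes Ermap and Slc4a1. All 8 passed the filter on low counts, and the question asked of them was whether late products of the erythroid lineage moved differently from early ones such as Car1 and Car2 when DHODH, an enzyme of de novo pyrimidine synthesis, was inhibited.

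The cells were acute myeloid leukaemia (AML) cells on a C57BL/6 background that carried RUNX1-RUNX1T1, a fusion of the transcription factor RUNX1 with a corepressor-binding protein, and that had been transplanted into Ptprca mice, so that both groups shared the leukaemia, the fusion and the transplant. AG636, a DHODH inhibitor, was given by oral gavage b.i.d. at 100 mg/kg to 1 group, and the other group received Vehicle, with 4 samples in each. The age of the mice is not given in the sources used here. Irradiation of the recipients before transplant is stated in the labels, while the methods of the study state it for other models only, and the study's figure legend gives 1 day of treatment and fewer mice per group than the 4 samples used here. Whether each sample was a separate mouse is not stated, so that p-values measure the spread between these samples, which may be partly technical. Cells high for cKit were sorted from bone marrow and spleen after lysis of red cells, without a statement of which sample came from which tissue. RNA was read from the 3′ end of polyadenylated transcripts, so that a count depends little on transcript length.

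Red cell precursors build haemoglobin from paired alpha and beta globin chains, which are made in the last divisions before the nucleus is lost. Carbonic anhydrases interconvert carbon dioxide and bicarbonate, and Car1 and Car2 are already transcribed in erythroid progenitors. Slc4a1 is band 3, the anion exchanger that carries bicarbonate across the red cell membrane and anchors the membrane skeleton, and Ermap is an immunoglobulin family protein of the erythroid membrane. Transcription of the globin loci is known to depend on erythroid factors that bind CACCC and GATA elements.

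The globin genes are near-identical copies in pairs, and the sequences below are shown because they limit how far the members of a pair can be told apart by short reads. The coding sequences of Hba-a1 and Hba-a2 differed at 1 of 429 bases, C381T, and those of Hbb-bs and Hbb-bt at 1 of 444 bases, C417T, counted from 1 at the A of the start codon with the base of the first-named gene given first. The stretches around the difference, from the GENCODE M21 transcripts, carry the differing base in capitals.
Hba-a1 coding bases 361 to 401: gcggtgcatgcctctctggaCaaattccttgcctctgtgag
Hba-a2 coding bases 361 to 401: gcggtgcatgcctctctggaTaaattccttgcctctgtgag
Hbb-bs coding bases 397 to 437: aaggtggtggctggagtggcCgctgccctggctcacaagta
Hbb-bt coding bases 397 to 437: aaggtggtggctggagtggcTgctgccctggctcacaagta

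Of all 75-base windows of the reference transcript, the length of a read, 64.3% in Hbb-bs and 56.6% in Hbb-bt occurred unchanged in the partner gene, and so did 62.2% in Hba-a1 and 81.0% in Hba-a2. In the last 300 bases, where 3′ reads fall, the shares were 29.6% and 29.2% in the beta pair and 66.8% and 59.7% in the alpha pair. Car2, Ermap and Slc4a1 shared 0 windows with any other gene, and Car1 shared 6.69% with Gm5843, none of them in its last 300 bases. How reads that map to both members of a pair were counted is not stated, so the split within each globin pair is uncertain, more so for the alpha pair, and each pair is also given as a sum below.

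The 4 globin promoters are shown because their motifs are shared while their transcripts did not all vary together. The RefSeq promoter table (GRCm38.p6) held windows for 5 of the 8 genes, the 4 globins and Ermap. Each line gives the 120 bases before the RefSeq start on the coding strand. In the annotation of the count table the genes Hbb-bs, Hbb-bt, Hba-a1, Hba-a2 and Ermap begin 168, 73, 161, 3 and 16 bases upstream of that start, so that the windows of Hbb-bs and Hba-a1 lie wholly inside these gene spans and the others in part. The windows are printed with the CACCC, the CCAAT and the TATAA motif on either strand in capitals.
Hbb-bs promoter, chr7:103827929-103828048, minus strand: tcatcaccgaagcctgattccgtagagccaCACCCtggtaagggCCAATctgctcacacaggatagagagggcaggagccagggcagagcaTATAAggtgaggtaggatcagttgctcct
Hbb-bt promoter, chr7:103813924-103814043, minus strand: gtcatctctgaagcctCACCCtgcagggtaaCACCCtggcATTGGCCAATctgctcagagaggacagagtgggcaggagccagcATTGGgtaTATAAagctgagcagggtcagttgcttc
Hba-a1 promoter, chr11:32283552-32283671, plus strand: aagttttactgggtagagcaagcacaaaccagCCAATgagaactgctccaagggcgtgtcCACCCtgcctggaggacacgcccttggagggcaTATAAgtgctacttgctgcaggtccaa
Hba-a2 promoter, chr11:32296372-32296491, plus strand: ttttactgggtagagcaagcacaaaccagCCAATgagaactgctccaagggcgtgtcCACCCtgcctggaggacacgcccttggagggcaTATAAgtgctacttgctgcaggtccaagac

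All 4 globin windows held the CACCC, the CCAAT and the TATAA motif, against 0.688% of 32851 promoter windows of the same length that held all 3, and against 31.7%, 21.3% and 11.8% that held each one alone. TATAA began 27 to 30 bases before the start in every globin window. The Hbb-bt window held CCAAT at 3 places, of which the pair at 80 and 75 bases before the start abutted on opposite strands, and CACCC at 2 places. The Hba-a1 and Hba-a2 windows had 117 bases in common at an offset of 3 bases. The Ermap window (chr4:119189996-119190115, minus strand) held the CACCC, the TATAA and the GATAA motif, all on the opposite strand, and no CCAAT. The GATAA motif occurred in 10.5% of the windows.

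Total counts ranged from 6120030 to 7162036 per sample. Klf1, the erythroid CACCC-binding factor, had 703 to 1499 counts per sample, and Kit, the receptor used for the sort, which mast cells and other progenitors carry too, had 1022 to 1580. Of the early erythroid list 23 of 24 genes were tested, and Cd36, a fatty acid receptor of that list, had 0 to 2 counts. Of the list of mast cells, basophils and eosinophils 8 of 14 were tested, with at least 3385 and 3625 counts of Ms4a2 and Hdc, but at most 38, 22, 4, 2 and 5 counts of Mcpt8, Prss34, Prg2, Prg3 and Ear2. Of the immature myeloid granule list 7 of 10 were tested, and its enzymes Mpo, Elane, Prtn3 and Ctsg had at most 33, 30, 31 and 24 counts in any sample, while Cst7, Calr and Srgn had 135 to 594, 1688 to 3973 and 8047 to 14654 counts. These genes were singled out for this check after their values had been seen. Vehicle sample 4 stood apart from the other Vehicle samples, with Spearman correlations of 0.982 to 0.984 against 0.992 to 0.993 among the others. AG636 sample 3 had the highest summed level of 14 mast cell, basophil and eosinophil markers, 3453 CPM (counts per 1000000 of the TMM-adjusted library size) against 1382 to 2449 CPM in the other 7 samples, and the lowest summed level of 24 early erythroid genes, 5462 CPM against 5769 to 7332 CPM. Results that change without either sample are given both ways.

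Taken one by one, AG636 samples held more reads assigned to Hbb-bt than Vehicle samples after scaling. The summed beta pair, which is nearly all Hbb-bs and so cannot decide on Hbb-bt, did not pass the threshold. For the other 7 genes the comparison of 4 with 4 samples did not pass it either, with Slc4a1 at its edge. The threshold was an adjusted p of 0.05 by limma-voom over all 10911 genes tested. Under it 1 of the 8 genes was called, which is 12.5%, against a background of 14.0% of all genes tested of which 5.47% were called higher and 8.49% lower. The log2 fold change was positive in 7 of the 8 genes with a median of 0.37, and over all genes tested it was positive in 49.4% with a median of −0.01. Without AG636 sample 3, 3 of the 8 genes were called, all higher (Hbb-bt, Slc4a1 and Car1), against a background of 15.5% called and 6.96% called higher. That sample had the lowest sum of the 8 genes in the AG636 group, 8729 CPM. Leaving it out raises the AG636 mean of that sum by construction, so the count of 3 is not a test of the 8 genes. Without Vehicle sample 2, 3 or 4 in turn, 0 were called by limma-voom, against backgrounds of 8.27%, 6.19% and 9.11%. With all samples 3 of the 8 had an unadjusted p under 0.05, against 30.7% of all genes, and edgeR called 2, against 14.8%, and DESeq2 3, against 18.0%.

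**Figure D1:**
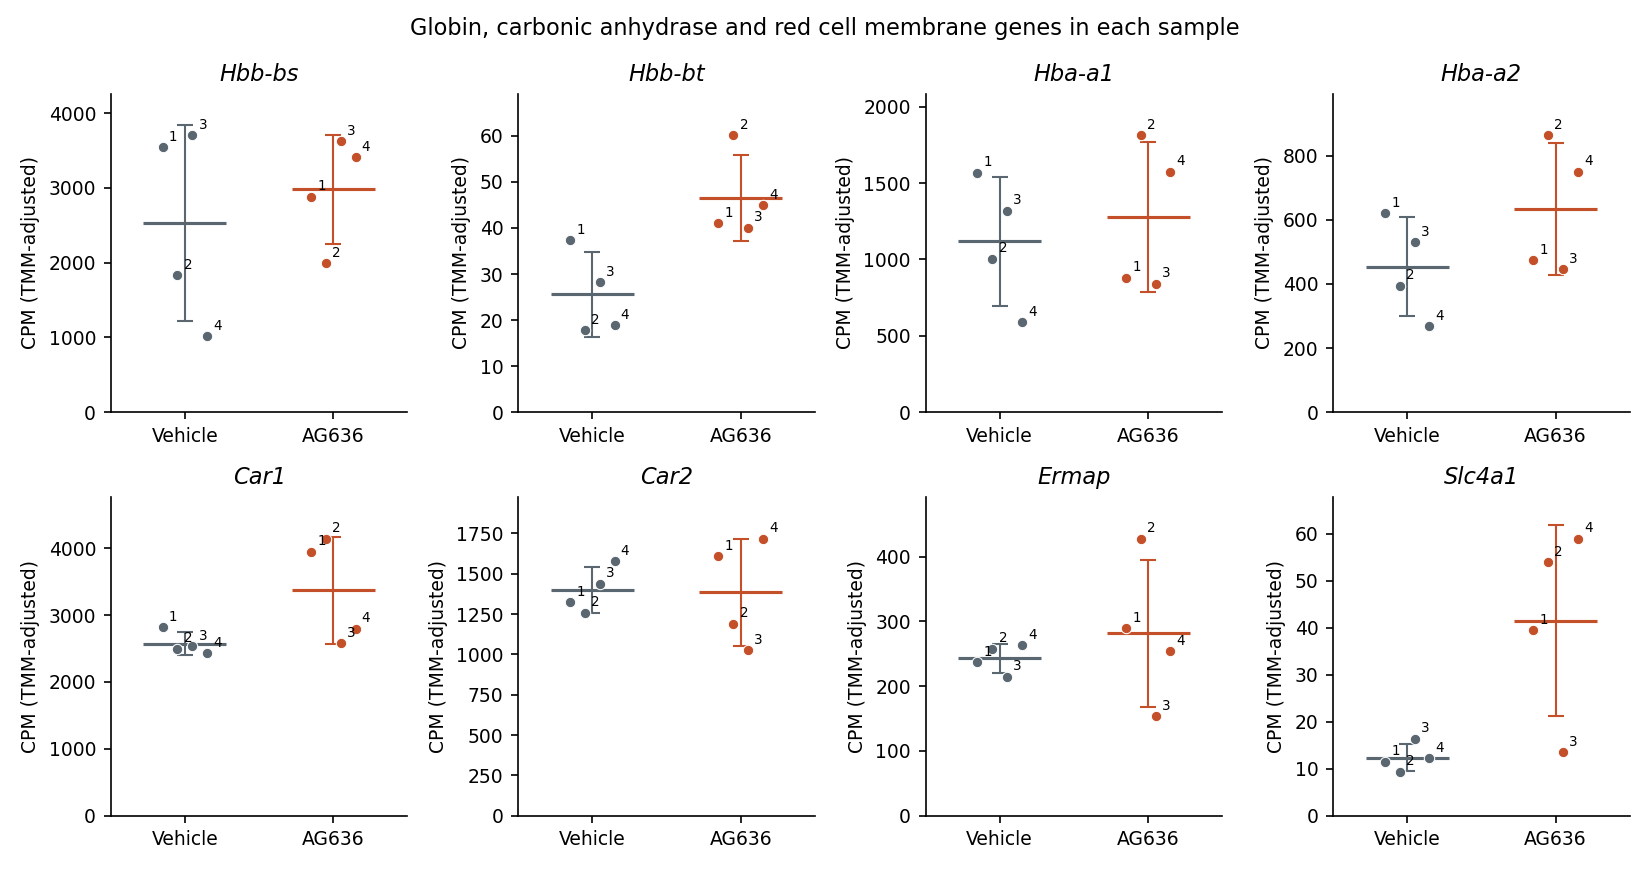
Level of each gene in CPM of the TMM-adjusted library size (vertical axes, linear from 0) in the 4 Vehicle and 4 AG636 samples, where points are samples with their number, horizontal lines are means and bars are SD. Hbb-bt was the only one of the 8 genes whose groups did not overlap, against 22.2% of all genes tested in either direction. AG636 sample 3 lay with the Vehicle samples for Slc4a1.

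Hbb-bs, the more abundantly counted beta globin (ENSMUSG00000052305, chromosome 7, 103826534 to 103828096, − strand, 4 exons), varied widely within the Vehicle group. Its level was 3542, 1834, 3708 and 1022 CPM in Vehicle samples 1 to 4 and 2886, 1999, 3632 and 3415 CPM in AG636 samples 1 to 4. The groups overlapped over nearly their whole ranges, and the highest and the lowest of all 8 values were both Vehicle samples, 3.63-fold apart. Means were 2527 ± 1313 CPM in Vehicle and 2983 ± 727 CPM in AG636 (SD, n = 4 each), a log2 fold change of 0.38 (95% interval −0.42 to 1.19, limma adjusted p = 0.518). In sorted bulk cells, fewer cells that make a transcript cannot be told apart from less of it per cell, and this holds for every gene here.

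Hbb-bt (ENSMUSG00000073940, chromosome 7, 103812524 to 103813996, − strand, 3 exons), the other adult beta globin, was counted far less often, with 116 to 377 reads per sample. It stood at 37.4, 17.8, 28.3 and 18.9 CPM in Vehicle samples and at 41.1, 60.2, 40.1 and 45.0 CPM in AG636 samples. Every AG636 sample lay above every Vehicle sample, with AG636 sample 3 and Vehicle sample 1 the closest to each other. Groups did not overlap in this direction in 9.35% of all genes tested, and in either direction in 22.2%. The rise was from 25.6 ± 9.19 to 46.6 ± 9.32 CPM, with a log2 fold change of 0.90 (SE 0.22, 95% interval 0.41 to 1.39, limma adjusted p = 0.0238). Without Vehicle sample 2, 3 or 4 the log2 fold change was 0.75, 0.97 and 0.79 with an adjusted p of 0.0745, 0.0531 and 0.0628, where the calls over all genes went from 1523 to 918, 688 and 1010. When the reads of both beta globins were summed, the log2 fold change was 0.39 (SE 0.36, limma adjusted p = 0.503) and the difference did not pass. The sum does not depend on the split, but Hbb-bt made up at most 1.81% of it in Vehicle and 2.92% in AG636 samples. It is thus nearly all Hbb-bs and cannot show whether the Hbb-bt difference depends on how reads were split.

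Hba-a1 (ENSMUSG00000069919, chromosome 11, 32283511 to 32284465, + strand, 3 exons) was at 1568, 1004, 1319 and 589 CPM in Vehicle and at 881, 1814, 841 and 1574 CPM in AG636. AG636 samples 2 and 4 were high and samples 1 and 3 low, and the high pair lay above every Vehicle sample and the low pair within the Vehicle range. Its log2 fold change was 0.20 (95% interval −0.50 to 0.90, limma adjusted p = 0.716), and it was −0.06 without Vehicle sample 4. The summed level of 15 neutrophil and monocyte markers split the AG636 samples alike, at 193 and 231 CPM in samples 2 and 4 and 32.3 and 34.3 CPM in samples 1 and 3. In Vehicle samples 1 to 4 it was 115, 124, 60.8 and 93.1 CPM, which did not follow Hba-a1. Vehicle sample 3 had the lowest marker sum of its group and 1319 CPM of Hba-a1. This comparison was not planned, and no other list of other-cell markers split the AG636 samples in this way. The B cell sum, for example, was 338, 80.0, 50.7 and 237 CPM in AG636 samples 1 to 4. The part of neutrophils and monocytes in the globin counts was not tested.

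Hba-a2 (ENSMUSG00000069917, chromosome 11, 32296489 to 32297298, + strand, 3 exons), whose promoter window nearly equals that of Hba-a1, followed it across samples with a Pearson r of 0.95 over 8 samples, whereas Hbb-bs and Hbb-bt had an r of 0.54. The 8 samples form 2 groups, and most windows of the alpha transcripts are common to both copies. Its level was 622, 395, 530.3 and 268 CPM in Vehicle and 474, 865, 446 and 750.2 CPM in AG636, again with AG636 samples 2 and 4 above the rest. The log2 fold change was 0.49 (95% interval −0.11 to 1.10, limma adjusted p = 0.249). With the alpha pair summed it was 0.29 (SE 0.30, adjusted p = 0.560).

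As a share of all counts, the 4 globins together ranged from 0.188% in Vehicle sample 4 (95% Wilson interval 0.184 to 0.191%, for counting error only) to 0.605% in AG636 sample 4 (0.599 to 0.611%). Group means were 0.401 ± 0.181% in Vehicle and 0.505 ± 0.0723% in AG636 (SD, n = 4 each), a difference of 0.104 percentage points that was smaller than the pooled SD of 0.138, and 0.0334 points without Vehicle sample 4. The adult globins were the globins present: the other globin genes, embryonic and theta, had at most 4 counts in any sample, and 0 of the 7 matched were tested. Hbb-bh0 and Hba-x had 0 counts throughout. Car1 with Car2 took 0.363 to 0.397% of counts in Vehicle samples and 0.369 to 0.573% in AG636 samples.

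**Figure D2:**
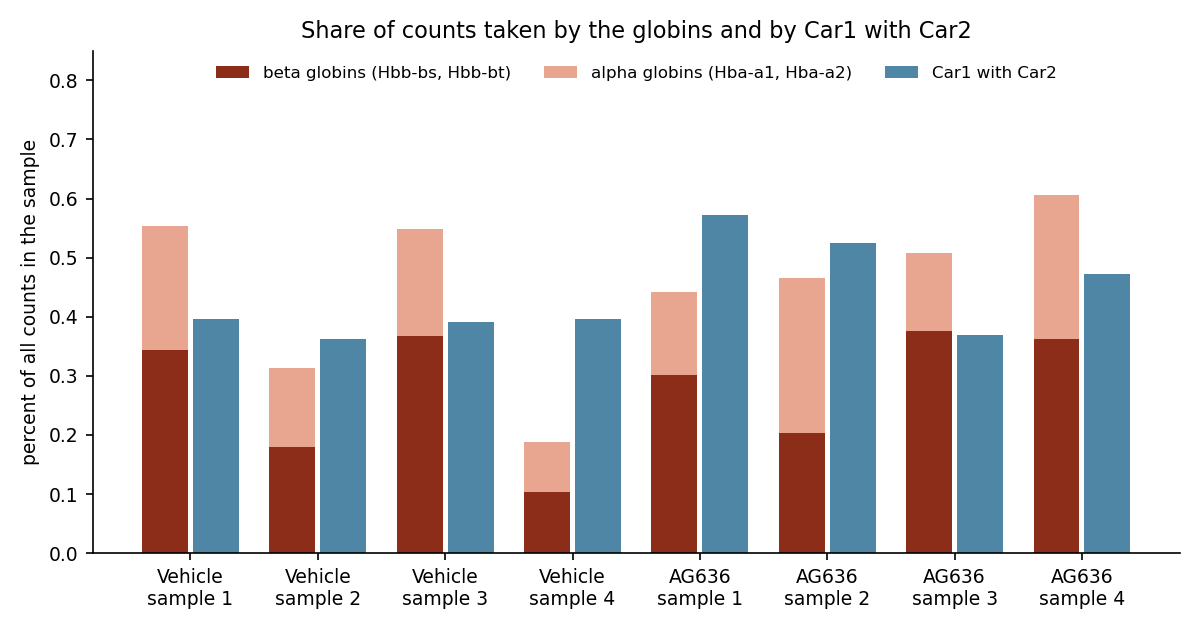
Percent of all counts in each sample (vertical axis, linear from 0) taken by the beta globins stacked with the alpha globins, and by Car1 with Car2 beside them. Vehicle sample 4 had the lowest globin share, 0.188%, at a share of Car1 with Car2 of 0.396%, close to that of Vehicle sample 1.

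Car1 (ENSMUSG00000027556, chromosome 3, 14766216 to 14808368, − strand, 8 exons) was at 2818, 2497, 2540.3 and 2427 CPM in Vehicle and at 3950.3, 4144, 2577 and 2798 CPM in AG636. The Vehicle samples lay close together and the AG636 samples fell into a high pair, 1 and 2, and a pair within the Vehicle range, 3 and 4. Means were 2571 ± 171 and 3367 ± 794 CPM, with a log2 fold change of 0.36 (SE 0.15, 95% interval 0.03 to 0.69) with an unadjusted p of 0.0348 and a limma adjusted p of 0.130. Without AG636 sample 3 the value was 0.48 with an adjusted p of 0.0376. DESeq2 gave 0.41 with an adjusted p of 0.0493 over all samples.

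Car2 (ENSMUSG00000027562, chromosome 3, 14886273 to 14900770, + strand, 8 exons), which lies beside Car1 on chromosome 3, had similar means in both groups. It stood at 1322, 1259, 1439 and 1577 CPM in Vehicle and at 1607, 1190.3, 1025 and 1718 CPM in AG636, and the AG636 samples included both the highest and the lowest values. The log2 fold change was −0.04 with a 95% interval of −0.39 to 0.30 (limma adjusted p = 0.884), and its sign turned without AG636 sample 3 (0.09) and under library size alone (0.03). The neighbours did not vary together, with an r of 0.03 over 8 samples. Their count ratio, Car1 to Car2, was 1.54 to 2.13 in Vehicle and 1.63 to 3.48 in AG636.

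Ermap (ENSMUSG00000028644, chromosome 4, 119175457 to 119190011, − strand, 13 exons) was at 237, 258, 215 and 264 CPM in Vehicle and at 289.6, 428, 154 and 255 CPM in AG636. AG636 sample 2 was the highest and AG636 sample 3 the lowest of all 8 samples, 2.77-fold apart, and the Vehicle samples lay between them. Its log2 fold change was 0.12 (95% interval −0.41 to 0.65, limma adjusted p = 0.769), 0.38 without AG636 sample 3 (adjusted p = 0.129) and −0.11 without AG636 sample 2.

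Slc4a1 (ENSMUSG00000006574, chromosome 11, 102348824 to 102366203, − strand, 25 exons) had the largest fold change of the 8 genes. Vehicle samples held 79, 61, 106 and 80 counts and AG636 samples 254, 338, 85 and 408, which is 11.5, 9.38, 16.4 and 12.2 CPM against 39.5, 54.0, 13.6 and 59.0 CPM. AG636 samples 1, 2 and 4 were each above every Vehicle sample, and AG636 sample 3 lay inside the Vehicle range. The means were 12.4 ± 2.94 and 41.5 ± 20.4 CPM, with a log2 fold change of 1.58 (SE 0.48, 95% interval 0.53 to 2.64) with a limma adjusted p of 0.0501, just above the threshold. By edgeR the log2 fold change was 1.75 with an adjusted p of 0.0122, and by DESeq2 1.77 with an adjusted p of 2.61e-05. It passed in 14 of 22 alternative analyses, in which the adjusted p ranged from 2.61e-05 to 0.122. Without AG636 sample 3 the log2 fold change was 2.04 (adjusted p = 0.000787). That sample was the one with the most mast cell and basophil transcripts and the least of the early erythroid list. The part of these differences in the Slc4a1 level was not tested. Across both groups the mast cell, basophil and eosinophil markers summed to 1916 to 2449 CPM in Vehicle and 1382 to 3453 CPM in AG636, with 8 of 14 tested and Epx at 0 throughout.

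**Figure D3:**
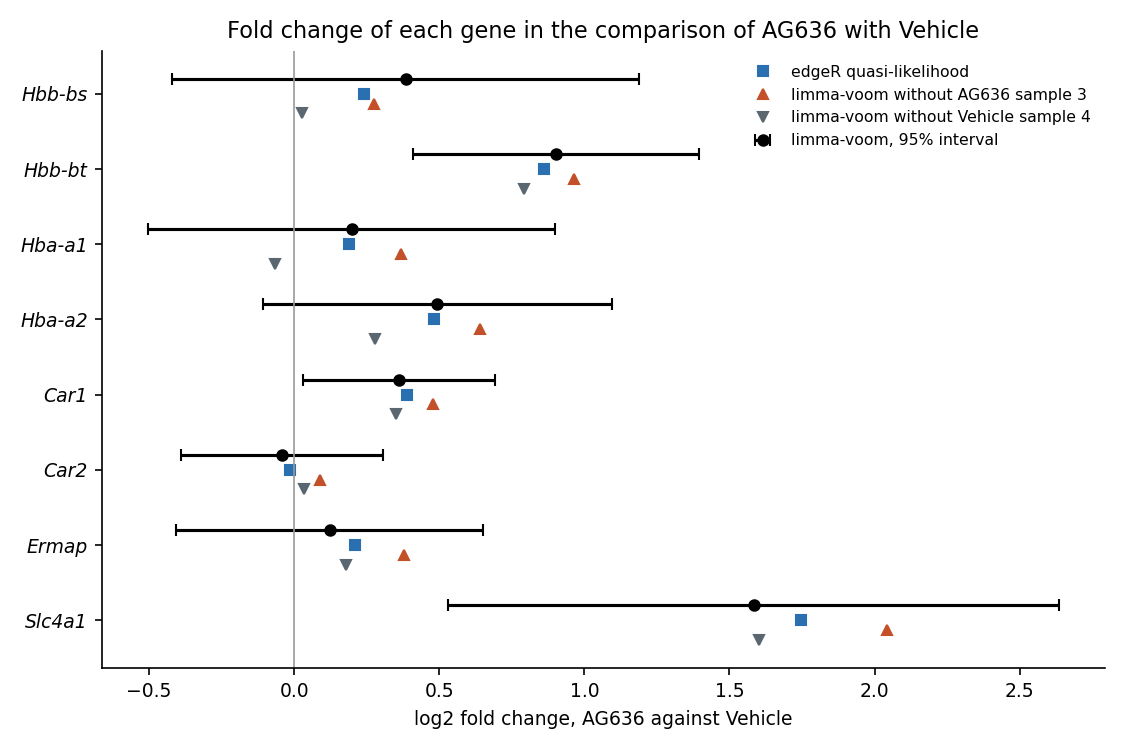
Log2 fold change of AG636 against Vehicle (horizontal axis) for each gene, where circles with bars are limma-voom estimates with 95% intervals, squares are edgeR estimates, and triangles are limma-voom estimates without AG636 sample 3 (up) or without Vehicle sample 4 (down). The intervals of Hbb-bt, Car1 and Slc4a1 lie above 0 before adjustment, and those of the other 5 genes include 0.

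Ratios within a sample do not depend on library scaling, and 4 of them are given, chosen after the values had been seen and not tested. The first sets the globins against Car1 with Car2, the second sets Slc4a1 against Ermap, which are both membrane genes, and the other two compare the copies within each globin pair. The ratio of globin counts to Car1 with Car2 was 1.39, 0.865, 1.40 and 0.474 in Vehicle and 0.771, 0.888, 1.38 and 1.28 in AG636, so that the AG636 range lay inside the Vehicle range. Slc4a1 relative to Ermap was 0.0363 to 0.0763 in Vehicle and 0.0879 to 0.232 in AG636, without overlap, and AG636 sample 3 was the lowest of its group here as well. This second ratio separated the groups and the first did not. In single genes tested, groups did not overlap in either direction in 22.2%, and no such share was computed for ratios.

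Within the alpha pair, Hba-a2 counts relative to Hba-a1 were 0.397, 0.393, 0.402 and 0.455 in Vehicle and 0.538, 0.477, 0.530 and 0.477 in AG636, means of 0.412 ± 0.0291 and 0.505 ± 0.0333. The groups did not overlap although each gene alone did. In single genes tested such a separation occurred in 22.2%, a share that was not computed for ratios. Hbb-bt made up 0.758 to 1.81% of beta globin counts in Vehicle and 1.09 to 2.92% in AG636, with overlap. Since the members of each pair share most of their coding sequence, as printed above, these ratios describe counts as assigned and not the output of each copy.

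**Figure D4:**
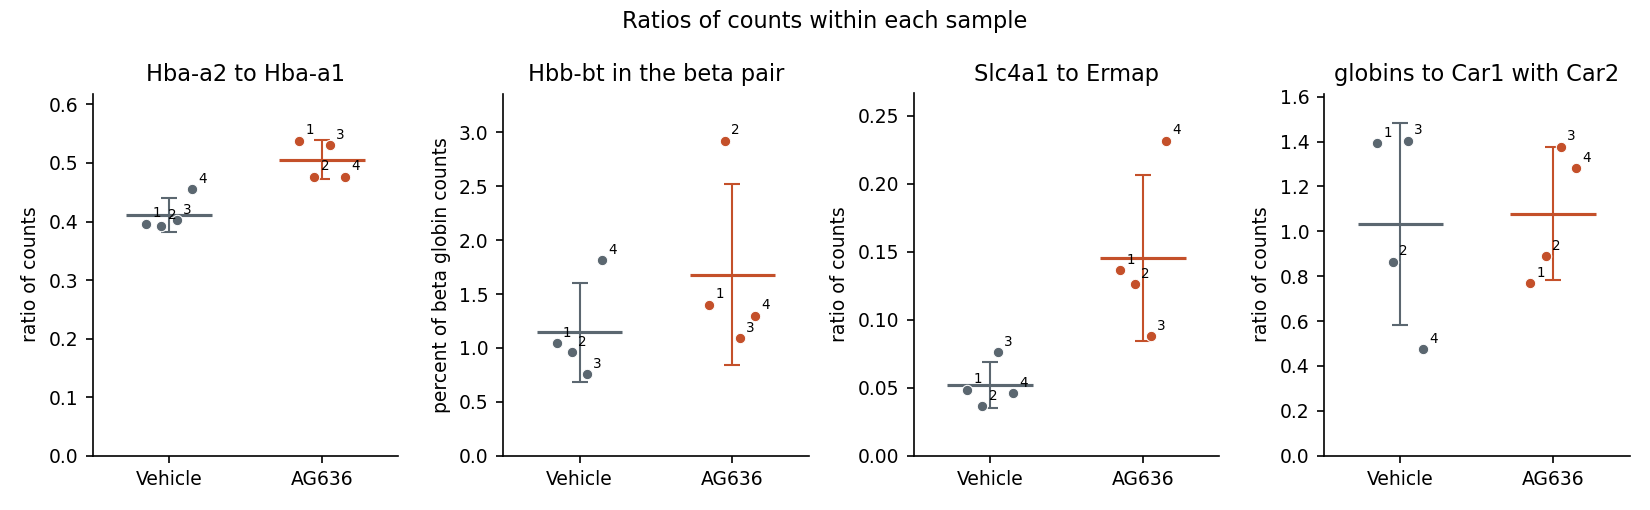
Ratios of counts within each sample (vertical axes, linear from 0; the Hbb-bt panel is a percent), where points are the 4 Vehicle and 4 AG636 samples with their number, lines are means and bars are SD. The groups separated for Hba-a2 to Hba-a1 and for Slc4a1 to Ermap and overlapped for Hbb-bt in the beta pair and for globins to Car1 with Car2.

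Other genes of the red cell were read beside these 8. Of 33 further genes of the red cell membrane and its skeleton, 28 were tested and 4 rose and 1 fell, which is 17.9% against the background of 14.0%, with a median log2 fold change of 0.22. Tspo2, an erythroid membrane translocator protein, rose from 46.3 ± 5.39 to 127 ± 58.9 CPM (log2 fold change 1.35, SE 0.25, limma adjusted p = 0.00757). Cd44, an adhesion receptor that falls as erythroblasts mature, rose from 145 ± 4.86 to 202 ± 12.03 CPM (0.48, adjusted p = 0.00454), and Cd59a, an inhibitor of complement, from 428 ± 42.8 to 626 ± 56.7 CPM (0.55, adjusted p = 0.00626). Rhag, the Rhesus-associated ammonium channel, rose from 114 ± 9.49 to 171 ± 38.1 CPM (0.56, adjusted p = 0.0346) and lost the call without any 1 Vehicle sample or without AG636 sample 1 or 2. Kcnn4, the calcium-activated potassium channel, fell from 252 ± 2.66 to 199 ± 8.61 CPM (log2 fold change −0.35, adjusted p = 0.0110). Without AG636 sample 3, 11 of 30 tested genes of this list were called higher and 2 lower, with a median of 0.41. The background of that fit was 15.5% called and 6.96% called higher. AG636 sample 3 had the lowest summed level of this list in its group, 3871 CPM against 4251 to 5339 CPM. Leaving it out raises the AG636 mean of that sum by construction, so the counts of 11 and 2 are not a test of the list.

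Of 28 genes of the late red cell cytosol and of maturation, 25 were tested and 2 rose, 8.0%, with a median log2 fold change of 0.27. Ube2l6, a ubiquitin and ISG15 conjugating enzyme, rose from 71.3 ± 6.76 to 117 ± 13.6 CPM (0.71, limma adjusted p = 0.00397). Slc25a38, the mitochondrial glycine carrier that feeds haem synthesis, rose from 24.1 ± 4.45 to 44.0 ± 14.3 CPM (0.82, adjusted p = 0.0488), a call lost in 8 of 22 alternatives, among them leaving out any 1 Vehicle sample or AG636 sample 1, 2 or 4. Without AG636 sample 3, 8 of 25 were called, all higher, against a background of 15.5% called and 6.96% called higher. That sample had the lowest summed level of this list, 5293 CPM against 5753 to 7504 CPM in the other samples. Leaving it out raises the AG636 mean of that sum by construction, so the count of 8 is not a test of the list.

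Of 24 early erythroid genes, 23 were tested and 2 rose, 8.70%, with a median of 0.12. Ces2g, a carboxylesterase, rose from 476 ± 26.7 to 692 ± 135 CPM (0.52, limma adjusted p = 0.0280) and Aqp9, an aquaglyceroporin of erythroid precursors, from 214 ± 10.8 to 298 ± 62.1 CPM (0.45, adjusted p = 0.0364). Both calls were lost without any 1 Vehicle sample, and that of Ces2g also without AG636 sample 1 or 2. Without AG636 sample 3, 7 of 23 were called, all higher, against a background of 15.5% called and 6.96% called higher. That sample had the lowest summed level of this same list, so leaving it out raises the AG636 mean of that sum by construction. The count of 7 is therefore not a test of the list.

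Among 22 regulators of the globin loci, all tested, 1 rose, 4.55% against 14.0% of all genes tested, with a median of 0.05. It was Sox6, a repressor of embryonic globin genes, which rose from 38.1 ± 8.20 to 91.1 ± 39.3 CPM (1.16, SE 0.30, limma adjusted p = 0.0296), a call lost without Vehicle sample 1, 2 or 3 or AG636 sample 1 or 2. Some genes are in both this list and the early list. Of the 14 other carbonic anhydrases 6 were tested and 0 were called by limma, by edgeR or by DESeq2, with 0 at an unadjusted p under 0.05. The highest of them were Car3, at 12.0 ± 1.88 and 15.2 ± 3.73 CPM in Vehicle and AG636, and Car13, at 11.9 ± 2.15 and 13.4 ± 2.33 CPM.

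**Figure D5:**
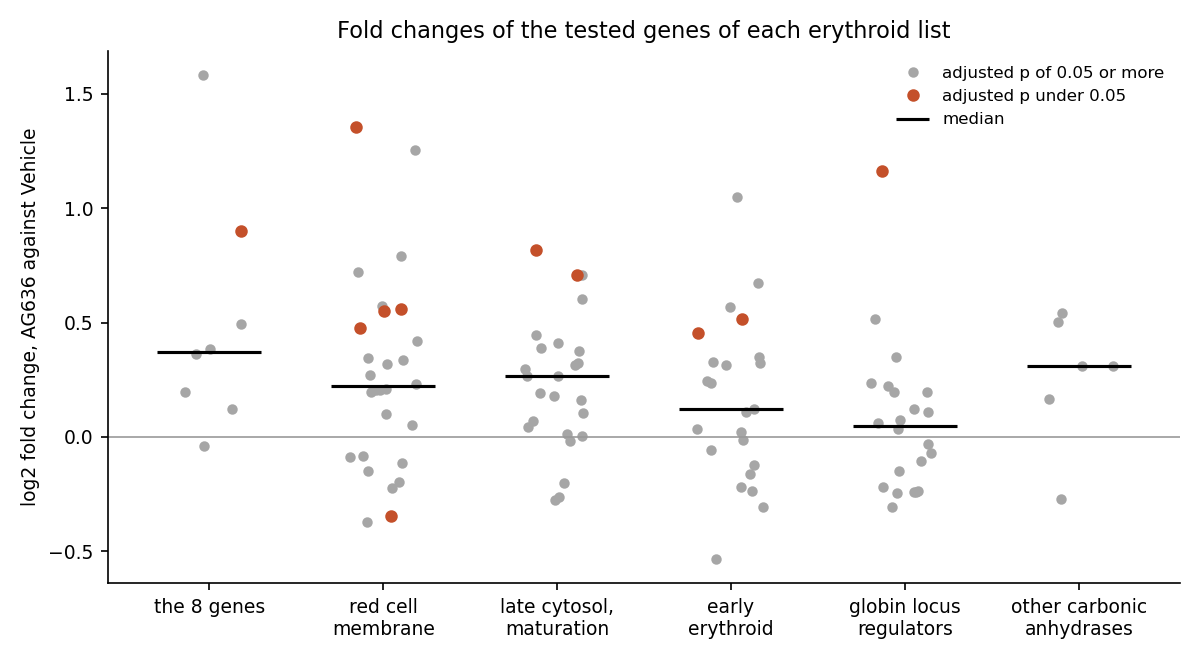
Log2 fold change of AG636 against Vehicle (vertical axis) for each tested gene of 6 lists, where points in colour had an adjusted p under 0.05, grey points did not, and black lines are medians. The medians were 0.37 for the 8 genes, 0.22 for other membrane genes, 0.27 for late cytosol genes, 0.12 for early erythroid genes, 0.05 for globin locus regulators and 0.31 for other carbonic anhydrases.

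Markers of other cells that a sort could hold were read in the same way. In the B cell list and in the granule list 14.3% of the tested genes were called, against 14.0% of all genes tested. B cell markers summed to 46.1 to 91.0 CPM in Vehicle and 50.7 to 338 CPM in AG636, with 1 of 7 tested genes called, Cd79a of the B cell receptor, which rose from 0.609 ± 0.377 to 2.14 ± 0.723 CPM (1.83, limma adjusted p = 0.0266), a call lost without Vehicle sample 1, 2 or 3 or with no filter on low counts. Immature myeloid granule genes summed to 2436 to 2898 and 1594 to 2501 CPM, of which Srgn, a proteoglycan core of granules that mast cells carry too, made up 1284 to 2243 CPM over the 8 samples. Of 7 tested 1 fell, the chaperone gene Calr, from 574 ± 6.77 to 377 ± 128 CPM (log2 fold change −0.67, adjusted p = 0.0435), a call lost in 9 of 22 alternatives, among them edgeR and library size alone. Macrophage markers summed to 9.07 to 16.9 CPM in Vehicle and 14.5 to 24.1 CPM in AG636, and T and NK cell markers to 8.16 to 13.8 and 12.8 to 29.1 CPM. Megakaryocyte markers summed to 267 to 293 and 248 to 370.1 CPM. In the lists of macrophages, T and NK cells, neutrophils, megakaryocytes and mast cells, 0 genes were called by limma, 2, 0, 0, 1 and 3 had an unadjusted p under 0.05, edgeR called 0, 0, 0, 1 and 1, and DESeq2 0, 0, 0, 1 and 2. The part of any of these cells in the values of the 8 genes was not tested.

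Of the genes named by rule from those lists, Hdc was at 1061 ± 128 CPM in Vehicle and 1065 ± 420.4 CPM in AG636, Ms4a2 at 851 ± 66.1 and 874 ± 232 CPM, Gp5 at 179 ± 4.69 and 192 ± 40.8 CPM, and Rab27b at 40.3 ± 4.64 and 53.4 ± 15.6 CPM. S100a8 was at 32.5 ± 10.1 and 39.6 ± 38.5 CPM, S100a9 at 30.8 ± 10.5 and 35.4 ± 33.8 CPM, Lck at 4.18 ± 1.16 and 5.45 ± 2.13 CPM, Trbc2 at 2.05 ± 1.07 and 4.08 ± 3.66 CPM, Vcam1 at 2.11 ± 0.819 and 4.45 ± 2.36 CPM, and Axl at 2.16 ± 0.707 and 3.86 ± 1.62 CPM.

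The genes whose levels followed each of the 8 most closely were sought among 8505 other tested genes with an average of at least 3 log2 CPM, over the 8 samples, as a description. Picking the closest of 8505 genes over 8 samples gives a high r even among unrelated genes. Shared control was not tested. For Hba-a1 they were Cd24a, a glycosylphosphatidylinositol-linked surface protein of erythroid and lymphoid precursors (Pearson r 0.98), Hba-a2 (0.95) and Ggact (0.94), and for Hba-a2 they were Cited4 (0.96), Vps13d (0.95) and Elmsan1 (0.95). For Slc4a1 they were AI987944 (0.98), Pdpr (0.96) and Mpp1, the palmitoylated membrane skeleton protein p55 (0.96). For Hbb-bs they were Ap3s1, Edem2 and 5430427O19Rik (0.94 each), and for Hbb-bt Slc9a8, Gm15503 and Tmx4 (0.95 each), with no gene in common. For Car1 they were Cdk5rap1 (0.99), Sh3bgrl and St7 (0.98 each), for Car2 Isca2 (0.94), Dctn3 (0.93) and Cox17 (0.91), and for Ermap Ap1b1, C1qtnf12 and Wapl (0.98 each). Apart from the alpha pair, none of the 8 genes was among the 3 closest to another.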

How the data were processed

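RNA of sorted RUNX1-RUNX1T1 AML cells was measured in 4 Vehicle and 4 AG636 samples with QuantSeq 3′ libraries. The deposited table holds unnormalized read counts of each gene, for which the authors trimmed 75-base reads with cutadapt, mapped them to mm10 (GRCm38) with HISAT2 and counted them with Subread. The submitters' processing notes give cutadapt 1.9.1, HISAT2 2.0.4 and Subread 1.5.0-p3, and the methods give other versions of some of these. Use of strand and of reads with several matches is not stated. Samples were grouped by title. Names were matched to symbols through a gene name table, and Ahsp was not matched.

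Genes were kept by filterByExpr (minimum count 10), scaled by TMM and compared by limma-voom on the 8 samples together (versions: R 4.3.3, limma 3.58.1, edgeR 4.0.16), two-sided, with Benjamini-Hochberg adjustment over 10911 genes and a threshold of 0.05. limma is the test named in the methods. CPM and its SD were computed here. Correlations used log2 CPM with a prior count of 2. In simulated counts with 10794 genes tested, 72.6% of 197 genes changed by 1 log2 unit were recovered and 9.49% of calls were false. Alternatives were DESeq2 1.42.0, the quasi-likelihood test of edgeR, limma-trend, sample quality weights, other scalings and filters, globins left out of library sizes, globin copies summed, a replicate block, each sample left out and a threshold of 0.01. AG636 sample 3 and Vehicle sample 4 were left out together after the data had been seen.

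The members and lists were chosen with earlier results of these data known. Besides the 8 genes, up to 5 called genes per list by smallest p were named, or the 2 of highest level where none was called, and the 3 genes of highest correlation with each member. No pair of samples agreed within sampling noise. All count columns were mapped to a sample, and the single table held no other values per sample.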

Additional observations from a re-analysis of the deposited data

Results flagged for a closer look

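Among 76 sets of 4 values examined (the 8 genes, the genes named from lists and 6 shares or ratios, in each group), 4 held a sample whose gap to the nearest other exceeded Dixon's 95% critical share of the range of its group, where chance gives about 3.8. Hbb-bt made up 2.92% of beta globin counts in AG636 sample 2, against 1.09 to 1.40% in the other AG636 samples. Kcnn4 was at 7.54 log2 CPM in AG636 sample 3, against 7.66 to 7.68. Aqp9 was at 8.61 log2 CPM in AG636 sample 1, against 8.02 to 8.08. S100a8 was at 4.17 log2 CPM in Vehicle sample 3, against 5.15 to 5.34.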

How the results depend on the processing

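Over all genes, leaving out single samples gave 688 to 1706 calls (6.19 to 15.5% of those tested), and a threshold of 0.01 gave 435 (3.99%). The other alternatives called from 5.13% with no filter to 18.0% under DESeq2, against 14.0%. Among the 8 genes the count of 1 became 2 under edgeR, limma-trend, sample quality weights, library size alone, RLE factors, upper-quartile factors, 10 counts in every sample, no filter and mitochondrial genes left out, and with AG636 sample 3 and Vehicle sample 4 both left out. It became 3 under DESeq2, 0 at the threshold of 0.01, and 0 to 3 when single samples were left out. With globin copies summed the 1 call was Slc4a1, and Hbb-bt was not tested on its own there. Of the other list genes, 12 of 140 tested were called, 8.57% against 14.0% of all genes, and the count was 22 under DESeq2, 24 with sample quality weights, 4 at the threshold of 0.01, 39 without both of those samples, and 5 to 37 when single samples were left out, the highest without AG636 sample 3. The causes were not tested.

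Replicate numbers did not pair the samples: same-numbered samples deviated with correlations of −0.14, 0.01, 0.20 and 0.14. With the number as a block, 1446 genes were called, 20 of the list genes among them, the adjusted p of Hbb-bt was 0.0532 and that of Slc4a1 0.0218, and S100a8 and S100a9 were at 0.14 and 0.11.

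Signs turned only in genes that were not called. Car2 was at 0.0039 under DESeq2, 0.027 with quality weights, 0.028 under library size alone, 0.17 without both samples and −0.14 to 0.090 without single samples. Hba-a1 was at −0.025 with quality weights and −0.065 to 0.39 without single samples, Hbb-bs at −0.076 without both samples, Ermap at −0.11 to 0.38 and Gp5 at −0.026 to 0.20 without single samples. Ms4a2 was at 0.038 under edgeR, 0.057 under DESeq2, 0.065 under library size alone, 0.019 with quality weights, 0.025 under upper-quartile factors and with 10 counts in every sample, 0.013 under RLE factors and without mitochondrial genes, and −0.12 to 0.21 without single samples. Hdc was at 0.0063 under edgeR, 0.025 under DESeq2 and −0.30 to 0.18 without single samples. S100a8 was at 0.29 and 0.30 under edgeR and DESeq2, 0.19 without both samples and −1.12 to 0.10 without single samples, and S100a9 at 0.20, 0.22 and −1.17 to 0.18. In all, 728 comparisons of 32 named genes kept direction and side of the threshold in 619, lost a call in 56, gained one in 17 and changed sign in 36.

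The difference in globin share was 0.0334 to 0.155 percentage points when single samples were left out, lowest without Vehicle sample 4. Each alternative moved it by less than the pooled SD of 0.138 points. The difference of 0.104 points was itself smaller than that SD, so this limit could not have shown its loss. Depth limits Hbb-bt and Slc4a1 most, with as few as 116 and 61 counts, and embryonic globins cannot be compared at 4 counts or fewer.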
